A study of Mus musculus with 4 samples.

Results

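The genes described here are 10 genes of the mGluR6 signaling cascade and of ON bipolar cells in the mouse retina. They were taken by symbol from the deposited table, and all 10 of them were found among its 48897 genes. Among them are the receptor gene Grm6, the G protein gene Gnao1 and the channel gene Trpm1. Gpr179, Nyx and Lrit3 serve the complex of receptor and channel. The others are the deactivation genes Rgs7 and Rgs11 and the marker genes Pcp2 and Isl1. The libraries were made from whole retinas of C57BL/6 mice (C57BL/6J in the study's methods) of wild-type genotype (spelled "wide type" in the labels) at postnatal day 9. On postnatal day 3, 1 μl with 0.6 nmol of an antagomir against miR-124-3p was injected into the vitreous of the left eye (anti-miR-124 group). The right eye received the same volume and concentration of a scrambled sequence (NC group). An antagomir is a chemically modified oligonucleotide that binds a mature microRNA. Each group had 2 libraries from mixed retinas, and 1 left-eye and 1 right-eye library share a number in the deposited table. The libraries are called NC-A, anti-A, NC-B and anti-B, where the letter stands for the shared number and names the pair. The left eye and the antagomir cannot be told apart, since all NC libraries were from right eyes. The study's methods call the libraries of a group biological replicates and state that the retinas of a group came from several litters. Which animals went into which library is not given in the sources used here, and the p-values measure only the spread between these pooled libraries.

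ON bipolar cells are interneurons that respond to light with a depolarization. In darkness, photoreceptors release glutamate, which binds the metabotropic receptor mGluR6 on the dendritic tips and, through the G protein Go, keeps the cation channel TRPM1 closed. When light stops the release, RGS proteins speed the inactivation of Go and the channel opens. Loss of several of these proteins causes congenital stationary night blindness, in which the ON response is missing. In the mouse, bipolar cells are among the last retinal cells to be born, and their dendritic synapses are still maturing at the age studied.

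The libraries held between 16317239 and 18726963 counts. Values per library are given in CPM, which are read counts scaled to one library size, after TMM normalization. Group differences are log2 fold changes of the anti-miR-124 over the NC group from edgeR's quasi-likelihood test, and 17766 genes passed its filter on low counts, among them all 10 members. NC-A carried lens transcripts. A group of 20 crystallin and other lens genes took 6.71% of its sum of TPM, a share of the library corrected for gene length, against 0.0175% to 0.0236% in the other libraries. Library anti-B had the highest sum of 8 microglia genes, at 144 CPM, against 57.7 to 76.1 CPM in the other 3 libraries. In the directional library kit strand is kept, but whether the counting used it is not given in the sources used here.

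By TPM, the members spanned a 30.4-fold range. Isl1 had the highest mean level at 225 ± 21.1 TPM (SD, n = 4 libraries of both groups), followed by Gnao1 at 156 ± 17.1 TPM. Both genes are also made by other retinal neurons, Isl1 by ganglion cells and cholinergic amacrine cells and Gnao1 by neurons in general. Grm6 had 72.7 ± 10.04 TPM and Pcp2 60.3 ± 8.80 TPM, and the ranges of these 2 genes over the libraries overlapped. Lrit3 at 41.8 ± 3.12 TPM, Trpm1 at 40.4 ± 5.56 TPM and Gpr179 at 39.0 ± 5.85 TPM could not be ordered, as their ranges overlapped. Rgs7 had 26.9 ± 5.09 TPM and Rgs11 11.1 ± 1.01 TPM. Nyx was the lowest member at 7.41 ± 1.41 TPM. Of the 9 neighbouring pairs in this order, 3 had overlapping ranges, with or without the lens genes in the TPM sum. All members were thus detected in every library, and ON bipolar genes were present in this tissue as the label has it.

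**Figure D1:**
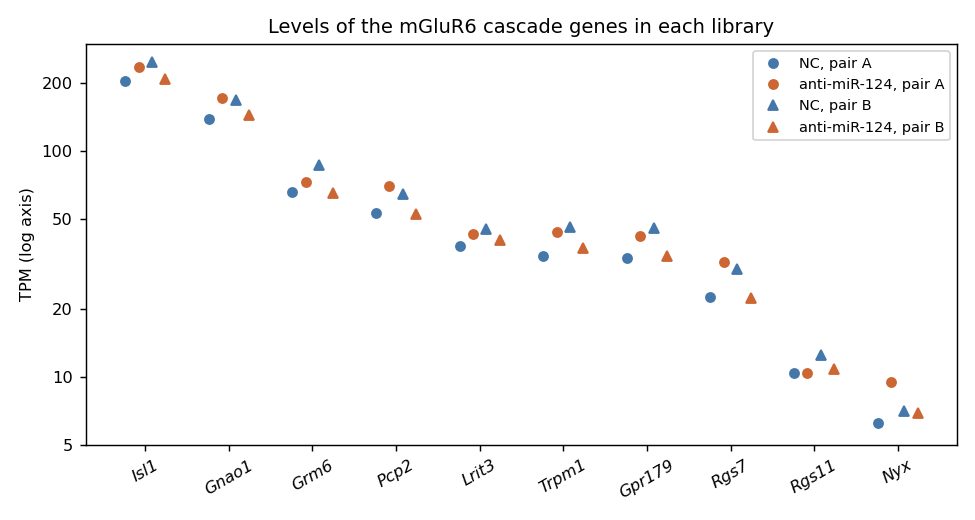
Levels of the 10 members in TPM on a log axis, 1 point per library (circles pair A, triangles pair B, blue NC, orange anti-miR-124), ordered by the mean. The members run from Isl1 at 225 TPM to Nyx at 7.41 TPM, and 3 of the 9 neighbouring pairs of genes have overlapping ranges.

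No member passed the test between the groups. The count of members with an adjusted p-value under 0.05 (edgeR's quasi-likelihood test, Benjamini-Hochberg over all genes tested) was 0, as was that of all genes (0% of 17766). At an unadjusted p-value under 0.05 there were also 0 members, while 2.23% of all genes passed this limit with higher and 1.68% with lower values after the antagomir. With DESeq2's Wald test 0 members passed either limit, against 0.203% of all genes by adjusted p-value (36 genes) and 1.73% by unadjusted p-value (308 genes). The smallest adjusted p-value of a member was 0.989 with edgeR. Log2 fold changes of the members ran from -0.18 for Grm6 to 0.25 for Nyx, with a median of -0.04, against 0.0007 over all genes tested. For 8 of the 10 members the group difference was smaller than the pooled SD of the libraries within groups, and the exceptions were Grm6 and Rgs11. The share of all genes for which this held is not given here, so the count does not set the members apart. All 10 intervals (95%) of the fitted fold change held 1, and none reached below 0.698-fold or above 1.61-fold. With 2 libraries per group, a two-sided exact permutation test of a single gene cannot give a p-value under 0.333.

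Grm6 encodes mGluR6 itself and lies on chromosome 11 from 50850010 to 50866208 (GRCm38, plus strand). Its level was 116 CPM in NC-A, 120 CPM in anti-A, 140 CPM in NC-B and 106 CPM in anti-B. NC-B was the highest library and anti-B the lowest, so that the groups overlapped. The log2 fold change was -0.18 (standard error 0.11, 95% interval -0.46 to 0.09), the lowest of the members. An antisense gene, ENSMUSG00000086226.1, lies within Grm6 and had 196 to 312 counts per library, against 1868 to 2526 for Grm6. If the counting did not use strand, the reads of the 2 genes cannot be told apart there.

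Gnao1, on chromosome 8 from 93810561 to 93969388, encodes the alpha subunit of Go, which couples the receptor to the channel. It had 368 and 425 CPM in NC-A and anti-A and 408 and 349 CPM in pair B. The libraries of the anti-miR-124 group were thus the highest and the lowest of the 4. Its log2 fold change was -0.0042 with a 95% interval of -0.26 to 0.25, which is 0.834-fold to 1.19-fold. Of the inhibitory alpha subunits of the same family, Gnai1, Gnai2, Gnai3 and Gnaz, none passed the test, and their log2 fold changes ran from -0.09 for Gnai1 to 0.08 for Gnai3.

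Trpm1, on chromosome 7 from 64153835 to 64269772, encodes the cation channel that the cascade closes. Its levels were 86.2 and 103 CPM in NC-A and anti-A and 106 and 85.2 CPM in pair B. The values of the groups interleaved, and the log2 fold change was -0.03 (standard error 0.13, 95% interval -0.34 to 0.28). Trpm1 is also made by pigment cells. The 6 tested genes of the pigment epithelium summed to 66.5 CPM in anti-A and to between 30.8 and 46.3 CPM in the other libraries. Their part in the value of Trpm1 was not tested. Mir211, a microRNA gene within Trpm1, had 0 counts in all 4 libraries.

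Gpr179, Nyx and Lrit3 encode proteins that serve the receptor and channel complex at the dendritic tip, and none of these genes passed the test.
Gpr179, on chromosome 11 from 97332109 to 97352394, encodes an orphan receptor that anchors the RGS complex. It had 105 and 122 CPM in pair A and 129 and 98.0 CPM in pair B, with the NC library named first, and its order of libraries was that of Trpm1. Its log2 fold change was -0.09 (standard error 0.14).
Nyx, on chromosome X from 13461095 to 13489321, encodes nyctalopin, a leucine-rich repeat protein needed to place TRPM1 in the membrane. Counts of Nyx were 187 and 279 in NC-A and anti-A and 216 and 221 in pair B, or 11.6, 16.3, 12.0 and 11.7 CPM. Library anti-A stood above the other 3, which lay close together. The log2 fold change of 0.25 (standard error 0.18, 95% interval -0.19 to 0.69) rested on that library, as it was -0.0084 without it.
Lrit3, on chromosome 3 from 129788291 to 129804030, encodes a transmembrane protein required for nyctalopin to reach the synapse. It was the steadiest of these genes, with 25.8 and 26.9 CPM in pair A and 28.0 and 24.9 CPM in pair B, and its log2 fold change was -0.05 (95% interval -0.28 to 0.17).

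Rgs7 and Rgs11 encode the GTPase-activating proteins that end the signal of Go. Rgs7, on chromosome 1 from 175059076 to 175492813, had 23.9 and 31.6 CPM in NC-A and anti-A and 29.0 and 21.6 CPM in pair B. These were the widest opposite differences of the members, 1.32-fold in pair A and 0.745-fold in pair B, and the log2 fold change was 0.0040 (standard error 0.19). Rgs11, on chromosome 17 from 26202757 to 26211324, had 9.81 and 9.14 CPM in pair A and 10.8 and 9.39 CPM in pair B. It was the only member whose groups did not overlap, with both libraries of the anti-miR-124 group below both NC libraries, as was the case for 16.8% of all genes tested. The log2 fold change of Rgs11 was -0.15 (standard error 0.15, 95% interval -0.52 to 0.21) from 156 to 195 counts per library. On the TPM scale its groups overlapped, with 10.4 TPM in both libraries of pair A. With the lens genes left out of the TPM sum they did not overlap, at 11.1 and 12.5 TPM in NC-A and NC-B and 10.4 and 10.9 TPM in anti-A and anti-B. No member had both libraries of the anti-miR-124 group above both NC libraries, against 16.5% of all genes.

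Pcp2, on chromosome 8 from 3623369 to 3625545, encodes a modulator of Go found in ON bipolar cells and in Purkinje cells of the cerebellum. Its levels were 13.2 and 16.2 CPM in NC-A and anti-A and 14.7 and 11.9 CPM in pair B. The libraries of the anti-miR-124 group were again the highest and the lowest, and the log2 fold change was 0.01 (standard error 0.17). Its end overlaps the gene Pet100 on the opposite strand, which had 98 to 122 counts against 213 to 277 for Pcp2. Isl1, on chromosome 13 from 116298257 to 116309721, encodes a LIM-homeodomain transcription factor of ON bipolar, ganglion and cholinergic amacrine cells. It had 174 and 186 CPM in pair A and 192 and 162 CPM in pair B, and its log2 fold change was -0.07 (standard error 0.10, 95% interval -0.31 to 0.16). In the marker lists of the other cells that make Isl1, anti-A and NC-B were the higher and NC-A and anti-B the lower libraries, as for Isl1. The 7 ganglion cell genes summed to 518 and 719 CPM in pair A and 609 and 442 CPM in pair B, and the 6 genes of cholinergic amacrine cells to 155, 167, 160 and 141 CPM. Their part in the values of Isl1 was not tested.

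**Figure D2:**
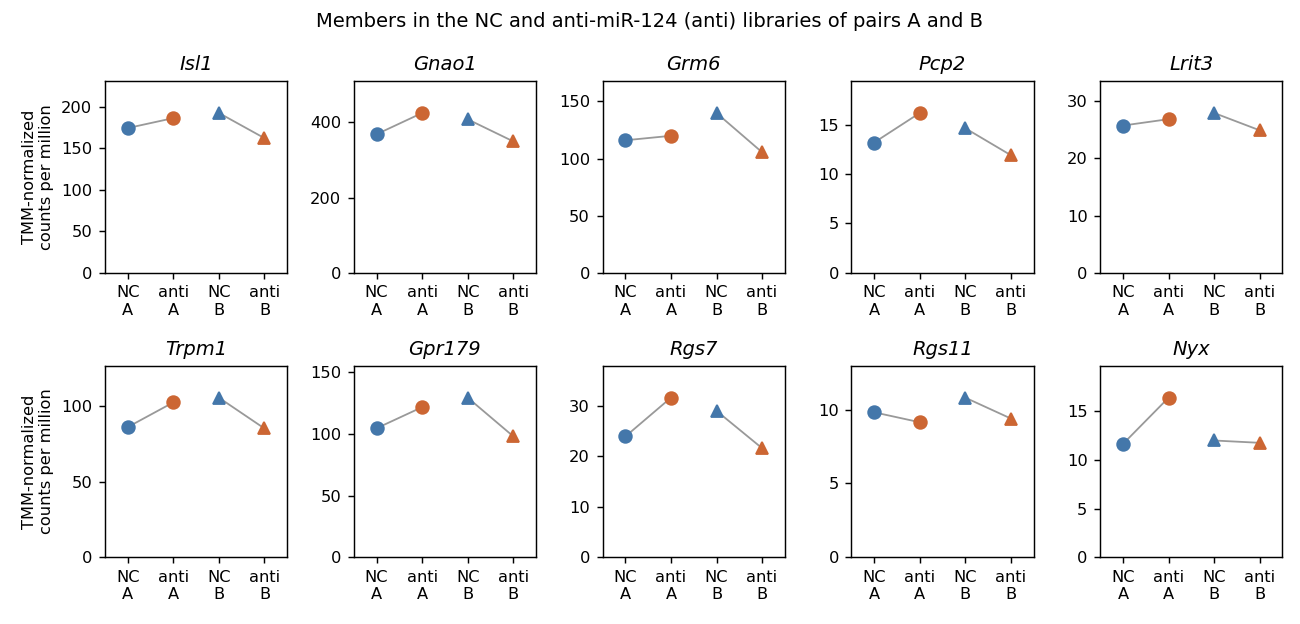
TMM-normalized CPM of each member in the 4 libraries, with the axis of each panel starting at 0. Lines join both libraries of a pair (blue NC, orange anti-miR-124, circles pair A, triangles pair B), and for 9 of 10 members the line goes up in pair A and for 10 of 10 down in pair B.

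With the libraries paired by their shared number, the pairs went in opposite directions. Whether this number marks eyes of the same animals is not given in the sources used here, and the directions depend on this pairing. In pair A, 9 of the 10 members had a higher CPM in the anti-miR-124 library, against 48.2% of all genes tested, and the exception was Rgs11, the single member lower in both pairs, as were 24% of all genes. In pair B, all 10 members had a lower CPM in the anti-miR-124 library, against 49.4% of all genes. Together, 9 members were higher in pair A and lower in pair B, a pattern that 25.5% of all genes had. The reverse, lower in pair A and higher in pair B, was found for 0 members and 27.8% of all genes. The median log2 ratio of the members was 0.21 in pair A (1.16-fold) and -0.27 in pair B (0.828-fold), while over all genes it was -0.0094 and 0.0031. For 8 of the 10 members anti-B was the lowest of the 4, against 26.7% of all genes. For Nyx the lowest was NC-A, as for 24.2% of all genes, and for Rgs11 it was anti-A. The highest library was NC-B for 6 members and anti-A for 4 members, against 21.2% and 22.8% of all genes. In bulk retina, fewer bipolar cells and less RNA of these genes per cell cannot be told apart.

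Within a pair, the ratios of several members were larger than their counting error. Exact binomial 95% intervals of the ratio, which compare 2 libraries and cover counting error only, lay above 0 on the log2 scale for 7 members in pair A and below 0 for 7 members in pair B. In pair A the intervals of Grm6, Lrit3 and Rgs11 held 0, and in pair B those of Nyx, Lrit3 and Rgs11. The share of all genes with such intervals was not computed, so these numbers of members do not set them apart from other genes. Over all genes with enough counts, lens genes included, chi-square per degree of freedom was 28.3 in pair A and 9.94 in pair B. This value is an average that a few genes can raise, so it does not show how many genes differed beyond counting error. Gnao1, the member with the most counts, had a log2 ratio of 0.21 (0.16 to 0.26) in pair A and of -0.22 (-0.27 to -0.18) in pair B. Rgs7 had 0.40 (0.21 to 0.59) and -0.42 (-0.61 to -0.23). By TPM, the measure in the study's methods, all 10 members were higher in pair A, with a median log2 ratio of 0.32, and all 10 were lower in pair B, with a median of -0.28. With a TPM sum that leaves out the lens genes, the median in pair A was 0.22 and 9 members were higher, so that no member had the same sign in both pairs other than Rgs11. In an alternative added after seeing the data, NC-A with its lens transcripts and anti-B with its microglia transcripts were both left out. The 1 library per group that remained allows no test. The median log2 ratio of anti-A over NC-B was then -0.05, with 6 members lower and 4 higher, from -0.24 for Rgs11 to 0.45 for Nyx. With all libraries, the median of the mean log2 ratio of both pairs was already -0.04. This comparison therefore cannot single out the 2 libraries left out. Libraries anti-A and NC-B were also the most alike over all genes, with a chi-square per degree of freedom of 3.69. The part of the lens and microglia transcripts in the members' ratios was not tested.

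**Figure D3:**
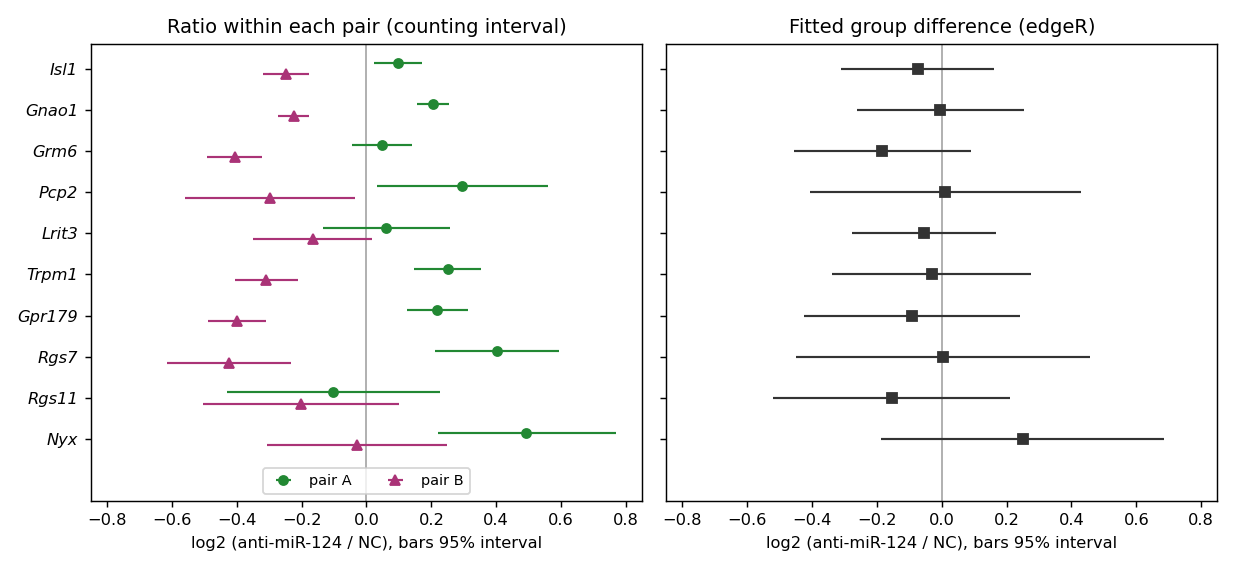
Left, log2 ratio of the anti-miR-124 over the NC library of each member within pair A (green circles) and pair B (purple triangles), with exact binomial 95% intervals for counting error. Right, the fitted log2 fold change over both pairs with its 95% interval from edgeR, where all 10 intervals hold 0.

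Other genes listed as partners of the cascade did not pass the test either, and 0 of 6 had an unadjusted p-value under 0.05. These were the G protein beta and gamma subunit genes Gnb3 and Gng13, Gnb5 and Rgs9bp, whose products bind RGS proteins, the kinase gene Prkca and the calcium channel gene Cacna1s. Cacna1s had only 24 to 41 counts per library, and its part in the cascade was not examined here. The 6 genes had a median log2 fold change of -0.03. The pattern of the members, higher in pair A and lower in pair B, was found in 4 of them, against 25.5% of all genes. Prkca, the common marker of rod bipolar cells, had 260 and 303 CPM in NC-A and anti-A and 326 and 257 CPM in pair B. Gng13 had log2 ratios of 0.80 and -0.85 in the pairs from 26 to 50 counts per library. Gnb3, which photoreceptors also make, had the opposite order with -0.02 and 0.13, and Rgs9bp was near 0 in both pairs with -0.05 and -0.0070.

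Across the synaptic cleft, the genes of 8 partner proteins were examined. They are Elfn1 and Elfn2, which encode adhesion proteins that bind group III metabotropic receptors, Egflam (pikachurin) and Dag1 (dystroglycan), the presynaptic calcium channel genes Cacna1f and Cacna2d4, and the Lrit3 relatives Lrit1 and Lrit2. None passed the test, and 3 of the 8 were higher in pair A and lower in pair B, against 25.5% of all genes. Elfn1 had log2 ratios of 0.09 and 0.0043, Egflam of 0.09 and 0.13, and Lrit1 of -0.01 and 0.02 in pair A and pair B. The largest of these fitted differences was that of Elfn2, with a log2 fold change of -0.20 (standard error 0.13).

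Relatives of the members in the same families were 12 genes, namely Grm4, Grm7, Grm8, Trpm3, Gpr158, Rgs6, Rgs9, Rgs7bp and the 4 alpha subunits above. Of these, 9 had the pattern of the members, against 25.5% of all genes, and none passed the test. Gpr158, the closest relative of Gpr179, had log2 ratios of 0.42 and -0.29, and Rgs6, a relative of Rgs7, of 0.40 and -0.26. Rgs7bp, which tethers RGS proteins to the membrane in neurons, had 0.25 and -0.46. Several of these genes are made by amacrine and ganglion cells as well.

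Higher values in pair A and lower values in pair B were also found among markers of other inner retinal neurons, against 25.5% of all genes. Of 7 rod bipolar genes (Bhlhe23, Sebox, Car8, Strip2, Vstm2b, Ablim1 and Prkca, the last also counted above), 6 were higher in pair A and lower in pair B, with median log2 ratios of 0.19 and -0.33. Bhlhe23, a transcription factor gene of rod bipolar cells, was the exception with 0.22 and 0.06. Of 8 OFF bipolar genes, whose cells use ionotropic glutamate receptors and lack the mGluR6 cascade, 7 had the pattern, with medians of 0.20 and -0.32. Grik1, the receptor gene of OFF bipolar cells, had 0.20 and -0.44, and Vsx1 0.11 and -0.53. Among 6 genes of bipolar cells of all kinds, 4 had the pattern, with medians of 0.13 and -0.15. Otx2, which photoreceptors also make, had -0.07 and 0.02. Ganglion cell genes had it in 6 of 7 cases with medians of 0.43 and -0.49. Cholinergic amacrine genes had it in 5 of 6 with medians of 0.23 and -0.25. The list of amacrine genes had it in 4 of 6, with smaller medians of 0.08 and -0.06. The pattern was therefore not limited to the mGluR6 cascade or to ON bipolar cells. No difference between any of the lists and the members was tested.

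Markers of other cell types were counted in the same way. The medians of 9 rod genes were 0.05 and 0.06 in the order used above, and 2 of them had the pattern. In 6 horizontal cell genes they were 0.22 and 0.09 with 1 such gene. All 7 cone genes had lower values in both pairs, with medians of -0.34 and -1.09, and 6 of them had an unadjusted p-value under 0.05 but none an adjusted one. In 6 Müller glia genes the medians were -0.05 and 0.14, and in 8 microglia genes -0.06 and 1.503. The 6 tested genes of the pigment epithelium had 1.10 and -0.04, and the 11 tested lens genes -8.59 and 0.72. Thus anti-B, the lowest for 8 members, was also that with the most microglia RNA and the least cone RNA. The part of these cells in the members' values was not tested. Without that library, the median log2 fold change of the members was 0.08, and without NC-A it was -0.13. It moved in a similar way without the other libraries, to -0.17 without anti-A and to 0.07 without NC-B.

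**Figure D4:**
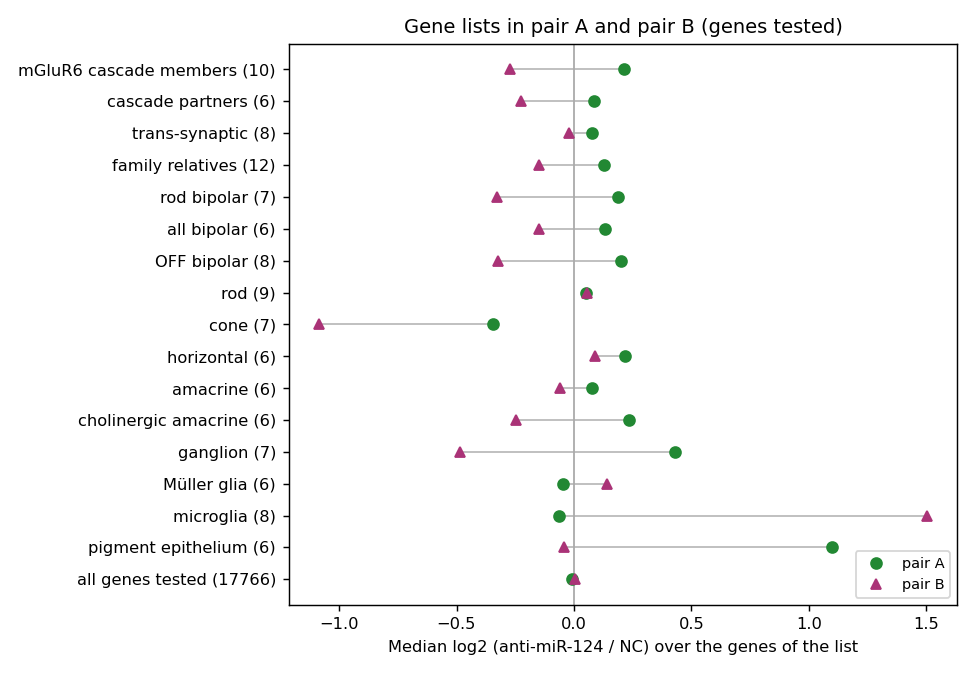
Median log2 ratio of the anti-miR-124 over the NC library in pair A (green circles) and pair B (purple triangles) for each gene list, with the number of genes tested in brackets. The members lie at 0.21 and -0.27, next to rod bipolar, OFF bipolar and cholinergic amacrine genes, while cone genes lie below 0 in both pairs. The lens list, at -8.59 and 0.72, is left out for scale.

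Promoters were searched for motifs of transcription factor families that are known for bipolar genes. The windows ran from 250 bases before to 50 after each annotated start (RefSeq, GRCm38.p6). They were given for 9 of the 10 members, 13 windows in all, and not for Rgs11. The motif TAATCC, which the homeodomain proteins OTX2 and CRX bind, was searched on both strands. It was found in 2 of the 13 windows, those of Isl1 and of 1 of the starts of Trpm1, against 7.06% of 32851 windows of all genes. The E-box CATATG, read the same on both strands, was found in 0 of the 13 windows and in 3.91% of all windows. The matches are shown 5′ to 3′ on the strand of the gene, with the motif or its reverse complement in capitals. The Isl1 match begins 177 bases before the start, at chr13:116309848-116309877 on the minus strand. The Trpm1 match begins 34 bases before the start, at chr7:64153789-64153818 on the plus strand, and is the reverse complement.
Isl1: cctcgggaggctTAATCCtctcctgcgggc
Trpm1: cggggggagtagGGATTAaggctgattaca
With 2 matching windows, no share can be told from that of all genes, and a match does not show binding.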

How the data were processed

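RNA-Seq was performed by the authors on 2 anti-miR-124 and 2 NC libraries, and HISAT2 is named in the submitters' processing notes. The build given there is mm9, but 99.9% of 30499 symbols overlapped their positions in GENCODE M21 (GRCm38), which is used for the positions here. The counting tool is not given in the sources used here. The authors deposited raw read counts per gene and gene lengths. They also deposited RPKM values in 4 columns, which were not used. Columns were assigned to groups by the eye they name. The numbers in the column names are not those of the labels.

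Differences were tested with edgeR 4.0.16 (R 4.3.3) quasi-likelihood tests with TMM, its low-count filter and no covariate, two-sided, with Benjamini-Hochberg adjustment over all genes and a threshold of 0.05. The script was tested on simulated data. DESeq2 1.42.0 was an alternative. TPM was computed from counts and lengths in Python 3.11.15. No libraries were duplicates, as chi-square per degree of freedom was at least 3.69. This lowest value was that of anti-A and NC-B, which differ in group and in number. Within groups it was 27.5 for the NC and 10.1 for the anti-miR-124 libraries. The text names all members and, of other lists, any gene beside the counts of its list. The members and lists were chosen with earlier results of these data known. Matches to the miR-124-3p seed were not analysed here.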

Additional observations from a re-analysis of the deposited data

How the results depend on the processing

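No member passed an adjusted p-value of 0.05 in edgeR or DESeq2 under any of the alternatives, the smallest value being 0.437. The count of genes called moved from 0 to 379 without the filter on low counts, to 36 with DESeq2's Wald test, and from 0 to 256 when 1 library was left out, the highest without anti-A. It was 57 without NC-B, 12 without anti-B and 0 without NC-A. With the replicate block it stayed at 0, while the genes with p-values under 0.05 before adjustment numbered 376, against 694 without it. The deviations of same-numbered libraries had a correlation of -0.17, and with the numbers crossed, an alternative added after seeing the data, 160 genes were called. The libraries share only a number.

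Beyond leaving out libraries, 5 of 80 member values changed sign, all near 0. These were Rgs7 with the replicate block (-0.012) and with crossed numbers (-0.0049), Pcp2 with the replicate block (-0.0018), and Gnao1 with total counts (0.0023) and without the filter (0.0029). When 1 library was left out, 14 of 40 values changed sign. The log2 fold changes then ran from -0.17 to 0.12 for Trpm1, from -0.26 to 0.071 for Gpr179, from -0.0084 to 0.48 for Nyx and from -0.11 to 0.0070 for Lrit3. They ran from -0.29 to 0.26 for Rgs7, from -0.15 to 0.13 for Gnao1, from -0.23 to 0.22 for Pcp2 and from -0.18 to 0.027 for Isl1. Grm6 (-0.31 to -0.04) and Rgs11 (-0.22 to -0.08) kept their sign. The median of the members ran from -0.17 to 0.08, that of the rod list from 0.033 to 0.107 and that of the lens list from -8.66 to 0.68. The groups of 0 members did not overlap, in the lower direction, by TPM, against 1 with TMM and 1 by TPM with the lens genes left out of the sum, an alternative added after seeing the data. The cause of the other changes was not tested. The comparison of 8mer seed sites was not run. With 2 libraries per group, differences under the printed intervals could not be detected.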
